A study of Mus musculus with 11 samples.

Results

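EB-C5 is a polycistronic reprogramming cassette, a single transcript that encodes several reprogramming factors, and its array was compared with those of 3 other cassettes, OKMS, STEMCCA and WTSI. The members were chosen by construct name: the EB-C5 array against the 3 arrays of the cassettes grouped with it for carrying the short form of Klf4, which makes 4 of the 11 arrays of the series. The short form lacks residues at the N-terminus of the protein. The sample titles name the form only through OK+9MS and Klf4+9. Arrays titled Klf4 and Klf4+9 are called Klf4S and Klf4L here. The grouping of the other cassettes follows what is known of the published study. The labels do not list the factors of EB-C5. From general knowledge of the vector, it carries Lin28 beside the usual Oct4 (Pou5f1), Sox2, Klf4 and c-Myc, and the sources used here do not give the species of its cDNAs.

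All arrays used RNA of male mouse embryonic fibroblasts (MEFs) of 13.5 days post coitum, the F1 offspring of a ROSA-rtTA mother and a Nanog-GFP father, so every cell carried the doxycycline-dependent transactivator and a Nanog reporter, the controls included. The cells were transfected with a piggyBac transposon of the PB-TAC type and a transposase plasmid and then kept in embryonic stem cell medium with 1 µg/mL doxycycline, which switches on the cassette together with the fluorescent protein mCherry. EB-C5, OKMS, STEMCCA, WTSI and the 4 further cassettes (OSKM, OK+9MS, MKOS and OKN-HAMS) were sorted for mCherry on day 6, as were the cells with Klf4 alone (Klf4S and Klf4L). The lacZ cells were taken on day 2 without that sort, so day, sort and transgene cannot be told apart against lacZ. Each construct was measured on 1 array. The series asked how the amount and the form of Klf4 affect gene expression early in reprogramming.

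Lin28a binds RNA and is a protein of early embryos and pluripotent cells. It binds the precursors of the let-7 microRNAs and blocks their maturation, and mature let-7 lowers the messages of growth and fetal genes such as Hmga2 and the Igf2bp family. Lin28 is itself a let-7 target, and it has been used as an added reprogramming factor. The let-7 family is shown here because Lin28a acts on it. RefSeq (GRCm38.p6) lists 11 mature mouse names with the same seed, bases 2 to 8, which is in capitals in these 5 members:
mmu-let-7a-5p: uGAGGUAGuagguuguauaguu
mmu-let-7d-5p: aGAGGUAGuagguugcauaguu
mmu-let-7e-5p: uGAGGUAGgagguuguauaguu
mmu-let-7g-5p: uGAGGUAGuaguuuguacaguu
mmu-miR-98-5p: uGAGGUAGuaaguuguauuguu
The genes of these forms lie at chr13:48538239-48538260 (let-7a-5p of Mirlet7a-1), chr13:48536078-48536099 (let-7d-5p), chr17:17830366-17830387 (let-7e-5p), chr9:106178846-106178867 (let-7g-5p) and chrX:151913229-151913250 (miR-98-5p). The members differ only outside the capitals and in the first base of let-7d-5p.

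The genes of the cassette factors were read first, on the log2 scale of the deposited values. On that scale a difference of 1 is a 2-fold difference. Lin28a read 11.66 on the EB-C5 array, 6.81 on OKMS, 6.96 on STEMCCA and 6.74 on WTSI. It lay at 7.97 on OSKM, 8.47 on OK+9MS, 7.73 on MKOS and 8.52 on OKN-HAMS, and at 6.95 on Klf4S, 6.69 on Klf4L and 6.83 on lacZ. The EB-C5 array was therefore the highest of the 11, by 3.14 over the next cassette, while OKMS, STEMCCA and WTSI sat at the level of lacZ. Against the mean of those 3, Lin28a rose by 4.82 ± 0.31 (SE; limma, adjusted p = 0.0379 after Benjamini-Hochberg adjustment over 19938 genes). It was the single gene called among all genes tested (0.00502%), and no gene was called lower (0.0%), although 1007 genes were higher at an unadjusted p under 0.05 (5.05%) and 688 lower (3.45%). The call depended on the estimate of the spread. Lin28a was called in 8 of 16 fits, with differences between 4.06 and 4.88 and adjusted p between 0.00299 and 0.385. It was lost without OKMS (adjusted p = 0.214), STEMCCA (0.162), WTSI (0.0613), OSKM (0.209), OK+9MS (0.146) or OKN-HAMS (0.0808), although the difference stayed between 4.77 and 4.88. It was also lost with the 4 arrays alone (0.385) and against all 7 other cassettes (0.2). Transgene and endogenous Lin28a signal could not be separated.

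Myc, a transcription factor that promotes growth and proliferation, was the other cassette factor outside the range of the 3 arrays. It read 9.86 in EB-C5 against 10.76 in OKMS, 10.49 in STEMCCA and 10.77 in WTSI. The 4 further cassettes lay between 10.64 and 10.91, so EB-C5 was the lowest of all 8, and lacZ read 9.54. The difference of -0.81 ± 0.16 was not called (adjusted p = 0.339). Pou5f1, the gene of Oct4, read 12.94 in EB-C5 against 13.22, 11.89 and 12.88 in OKMS, STEMCCA and WTSI, and 6.09 in lacZ. Sox2 read 6.88 against 6.58, 6.22 and 7.76, and 6.79 in lacZ. Klf4 read 9.90 against 9.94, 9.64 and 10.20, and 9.47 in lacZ. These 3 factors lay inside the range of the other arrays, and the sign of each small difference turned under at least 1 alternative (Pou5f1 -0.11 without STEMCCA, Sox2 -0.29 without STEMCCA, Klf4 0.12 without WTSI). As for Lin28a, transgene and endogenous signal of Myc, Pou5f1, Sox2 and Klf4 could not be separated. Klf4 read 9.93 in Klf4S and 9.71 in Klf4L, which carry it as a transgene, close to lacZ. Sox2 in EB-C5, OKMS and STEMCCA lay near or below lacZ. The Sox2 and Klf4 values therefore cannot be taken as a measure of transgene amount. Whether the cassettes delivered equal amounts was not tested. Lin28b, the paralogue of Lin28a, read 7.39 in EB-C5 against 7.58, 6.39 and 6.80, and so lay inside the range as well.

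Few genes separated EB-C5 from the other arrays by a wide margin. EB-C5 was above the range of OKMS, STEMCCA and WTSI for 27.3% of all genes and below it for 22.0%. Centring each array on its median moved these shares to 39.7% above and 14.1% below. With 1 of the 3 arrays left out the range rests on a pair, and the shares were 35.3% to 36.0% above and 29.1% to 29.8% below. With a distance of at least 1 from their mean as a further condition, 59 genes were above (0.296%) and 78 below (0.391%). Of these, 53 were above all 7 other cassettes (0.266%) and 70 below all 7 (0.351%). A distance of at least 0.5 beyond the nearest of the 3 arrays was reached above by 191 genes (0.958%) and below by 214 (1.07%). The same centring turned the split of 59 and 78 to 70 above and 60 below. The same count with each of the others as the single array gave 162 above and 62 below for OKMS, 246 and 131 for STEMCCA, and 66 and 86 for WTSI, so EB-C5 had fewer such genes in all than each of the others. Over all genes EB-C5 was nearest to WTSI, with an SD of the differences of 0.301, then OKMS (0.345) and STEMCCA (0.403); the SD was between 0.476 and 0.511 against the 4 further cassettes and 0.563 against lacZ. Without WTSI the counts grew to 113 above and 170 below, and without OKMS to 91 and 91. A single array has no spread of its own, and an exact permutation test of 1 array against 3 cannot go below p = 0.25.

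**Figure D1:**
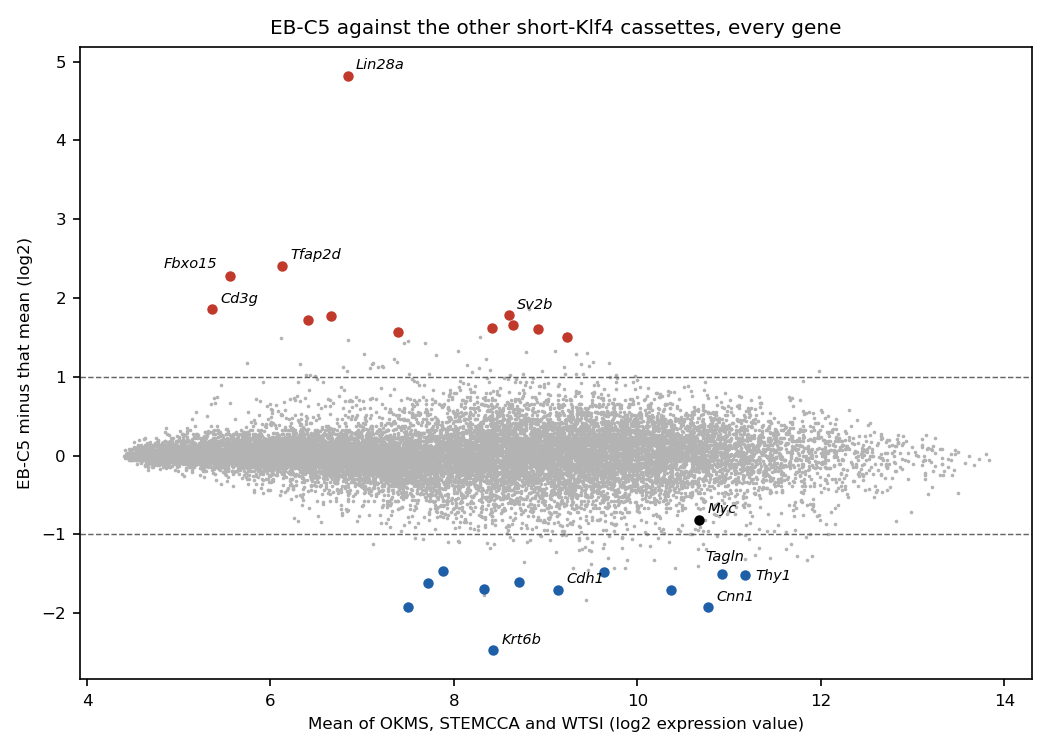
Difference of the EB-C5 array from the mean of OKMS, STEMCCA and WTSI (log2, vertical axis) against that mean (log2 expression value, horizontal axis) for 19938 genes. Red and blue points are the 12 genes named in each direction, the black point is Myc and the dashed lines mark a difference of 1; Lin28a stands alone at 4.82.

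Of the 12 genes with the largest positive differences, Lin28a was the single call, and the other 11 are given as values. The second was Tfap2d, a transcription factor of the AP-2 family, at 8.55 in EB-C5 against 5.74 in OKMS, 5.65 in STEMCCA and 7.02 in WTSI (2.41 ± 0.50, adjusted p = 0.341). It lay between 5.51 and 5.79 in the 4 further cassettes. WTSI was the only other array above that level, and without it Tfap2d was called (adjusted p = 0.0207). Fbxo15, an F-box gene of embryonic stem cells that has long served as a reprogramming reporter, read 7.84 against 5.43, 5.50 and 5.75. The 7 other cassettes lay between 5.28 and 5.81, near the low end of the array, where 21.0% of all genes had a mean under 6. Its difference was 2.28 ± 0.21 (adjusted p = 0.1), and it was called in 3 alternative fits (adjusted p between 0.0189 and 0.0303). Cd3g, a chain of the T cell receptor complex, read 7.23 against 5.33, 5.33 and 5.44 (1.86 ± 0.15, adjusted p = 0.0729). It was called in 4 alternative fits (adjusted p between 0.00885 and 0.0198). In Fbxo15 and Cd3g the 3 other arrays formed a tight group well below EB-C5. In both genes that group read under 6, near the array's low end, where tightness says little about spread. The blood markers Ptprc, Spi1, Csf1r and Tyrobp had a mean of 6.03 in EB-C5 against 5.95 to 5.99 in the 3 other arrays, so markers of blood cells lay at the array's low end on all of them.

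The remaining genes of this group had other levels in the other cassettes. Sv2b, a synaptic vesicle protein, read 10.38 in EB-C5 against 8.90, 8.11 and 8.78 in OKMS, STEMCCA and WTSI. The 4 further cassettes were lower still, between 6.38 and 7.17, so the 4 cassettes of the short form were all above them. Fndc3c1 had the same order, with 10.73 in EB-C5, 8.93, 8.67 and 10.08 in the 3 others and 5.86 to 8.32 in the 4 further cassettes. Ttpa, the alpha-tocopherol transfer protein, read 8.43 against 6.71, 6.27 and 7.01. Scn9a, a voltage-gated sodium channel, read 8.13 against 6.60, 5.92 and 6.72, and reached 7.60 in OKN-HAMS. Hhip, a cell-surface antagonist of Hedgehog ligands, read 8.96 against 6.91, 6.74 and 8.51, with WTSI close to EB-C5. Mmp13, a collagenase, read 10.30 against 7.75, 9.24 and 8.94, and at 10.62 the Klf4L array was above EB-C5. Tmem170b (10.04 against 8.26, 7.84 and 9.17) and Sh3rf2 (10.52 against 9.49, 8.10 and 9.16) were above all 7 other cassettes. The differences of these 8 genes lay between 1.50 and 1.78, with adjusted p between 0.325 and 0.801.

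**Figure D2:**
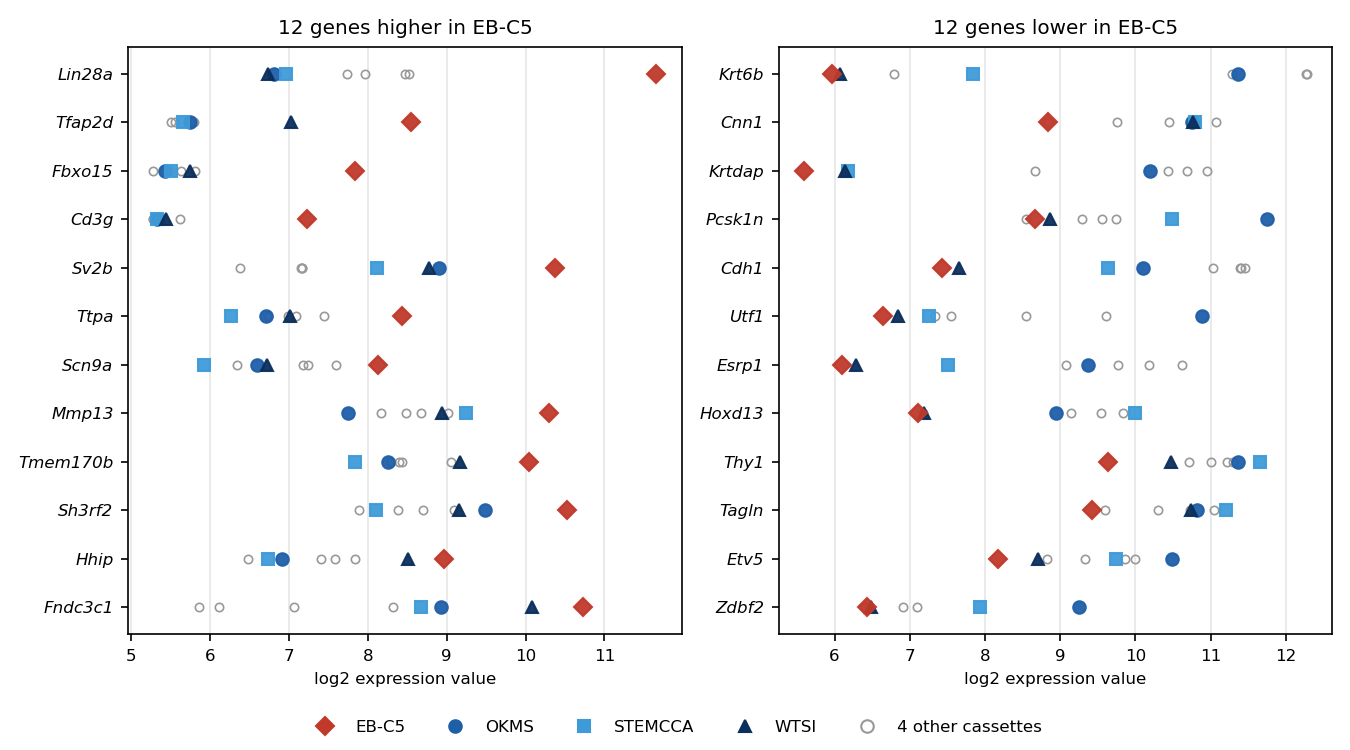
Log2 expression value (horizontal axis) of the 12 genes with the largest differences in each direction in EB-C5 (red diamonds), OKMS, STEMCCA and WTSI (blue symbols) and the 4 further cassettes (open circles), 1 array each. In several genes on the right WTSI lies beside EB-C5, while Cnn1, Thy1 and Tagln have EB-C5 apart from all 3.

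The messages that let-7 lowers were considered as a list of 26 measured genes taken from general knowledge of let-7 targets. EB-C5 was above the range of the 3 arrays in 16 of them (61.5%, against 27.3% of all genes) and below it in 2 (7.69%, against 22.0%), and no member was called. The median difference was 0.33, beside 0.01 over all genes, and lay between 0.23 and 0.41 under the alternatives. After centring 16 members were still above the range, beside 39.7% of all genes. The mean level of the list was 9.55 in EB-C5, 9.33 in OKMS, 9.15 in STEMCCA and 9.16 in WTSI; the 4 further cassettes lay between 9.13 and 9.23 and lacZ at 9.21. EB-C5 had the highest mean of the 11 arrays. It was above all 7 other cassettes in 14 members, beside 18.5% of all genes.

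The members named here were picked after their values were seen. Igf2bp1, which binds and stabilises messages of growth genes, read 10.76 in EB-C5 against 10.04 in OKMS, 9.62 in STEMCCA and 9.68 in WTSI (0.98 ± 0.21, adjusted p = 0.352). Its relative Igf2bp3 read 10.81 against 9.87, 9.98 and 10.05 (0.85 ± 0.21). E2f5, a member of the E2F family of cell cycle transcription factors, read 9.66 against 8.74, 8.76 and 8.56 (0.97 ± 0.17, adjusted p = 0.32). In all 3 genes the other short-form arrays lay close together, and EB-C5 lay above the highest of them by 0.71, 0.77 and 0.90. Dicer1, the nuclease that releases mature microRNAs, read 10.91 against 10.32, 10.24 and 9.99. Tgfbr1, a TGF-beta receptor, read 9.80 against 8.90, 9.13 and 9.03, and the orphan nuclear receptor Nr6a1 8.81 against 8.14, 8.03 and 8.11. Arid3b, Plagl2 and Trim71 were also above all 7 other cassettes, with differences of 0.71, 0.66 and 0.62. Hmga2, a chromatin protein of fetal tissue, read 11.51 against 11.44, 11.19 and 10.93, and was highest in lacZ at 12.70. Nras, Mycn and Dna2 lay inside the range, and the cyclin gene Ccnd1 lay narrowly below all 7 cassettes at 12.07.

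The let-7 genes themselves gave little signal. The array has 10 probe sets for their hairpins, of which 7 lay under 6 on every array, and mature microRNAs were not measured. EB-C5 was above the range of the 3 arrays in 4 of the 10 and below it in 2, beside 27.3% and 22.0% of all genes, with a median difference of 0.03. Mirlet7d, whose mature form is printed above, read 7.17 in EB-C5 against 6.39, 6.5 and 6.67. Mirlet7e read 7.04 against 7.20, 7.56 and 7.43, and so pointed the other way.

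**Figure D3:**
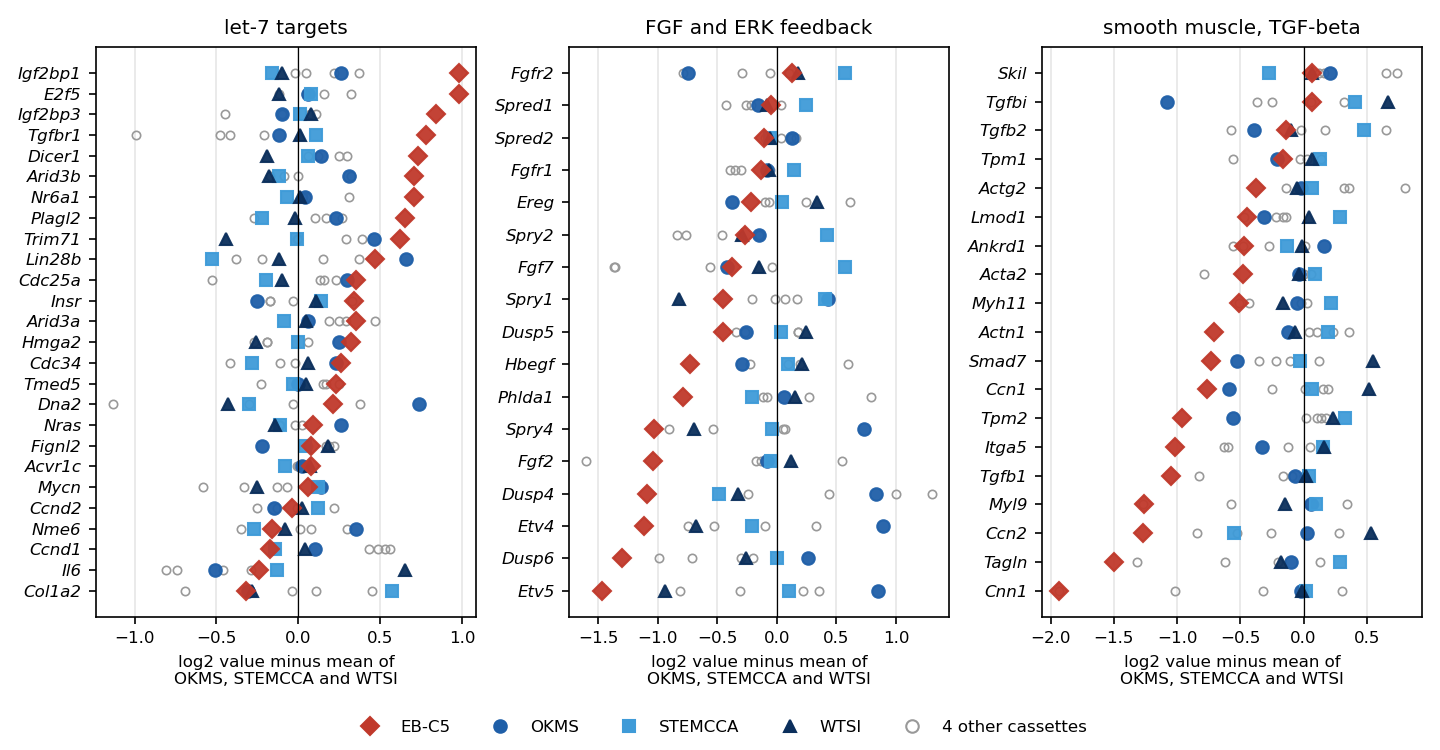
Log2 value minus the mean of OKMS, STEMCCA and WTSI (horizontal axis) for every measured member of the let-7 target, FGF and ERK feedback, and smooth muscle and TGF-beta lists; red diamonds are EB-C5, blue symbols the 3 other short-form cassettes and open circles the 4 further cassettes. In the let-7 panel 16 of 26 red diamonds lie right of all 3 blue symbols; in the others 11 of 17 and 15 of 19 lie left of them.

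Genes of cell division lay toward the upper end in EB-C5, together with OKMS. Of 25 DNA replication genes, EB-C5 was above the range of the 3 arrays in 12 (48.0%) and below it in none, and of 25 mitosis genes in 14 (56.0%) and 1, beside 27.3% of all genes above and 22.0% below; none was called. After centring the counts above were 13 and 17, beside 39.7% of all genes. The median difference was 0.44 for replication and 0.31 for mitosis. The mean of the replication genes was 10.10 in EB-C5 and 10.12 in OKMS, against 9.49 in STEMCCA and 9.50 in WTSI. That of the mitosis genes was 10.46 and 10.43, against 10.07 and 9.96. The 4 further cassettes lay between 8.86 and 9.82 for replication and between 9.3 and 10.26 for mitosis, highest in OKN-HAMS. The lacZ array had 9.54 and 10.22, and the Klf4S and Klf4L arrays lay between 8.05 and 8.16 in both lists. EB-C5 and OKMS thus had nearly the same level, and the difference came from STEMCCA and WTSI: without OKMS, EB-C5 was above the range in all 25 replication genes and in 23 mitosis genes, beside 36.0% of all genes. The largest replication differences, named after their values were seen, were in Pola1, the catalytic subunit of the polymerase that starts DNA strands, and Rfc3, a subunit of the clamp loader. Pola1 read 9.61 in EB-C5 against 8.99, 8.53 and 8.49 (0.94 ± 0.36, adjusted p = 0.538). Rfc3 read 9.94 against 9.27, 8.69 and 9.11 (0.92 ± 0.28, adjusted p = 0.454). They lay above the highest of the 3 arrays by 0.62 and 0.67. Of the mitosis genes picked in the same way, Bub1, a mitotic checkpoint kinase, read 10.90 against 10.27, 10.12 and 9.70, and Mki67, the gene of the Ki-67 antigen, 11.01 against 10.70, 10.61 and 10.31. The ribosome and MYC target list had 11 of 27 members above the range (40.7%, against 27.3% of all genes) and 2 below, with a median difference of 0.22 that ran from 0.09 to 0.33 under the alternatives. Without OKMS 20 were above (36.0% of all genes), without STEMCCA 7 were below (29.8%), and after centring 14 were above (39.7%). Its mean level was 11.08 in EB-C5 and 11.19 in OKMS, the 2 highest of all arrays. The Myc signal, in which transgene and endogenous message were not separated, was lowest in EB-C5 among the cassettes.

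E2F factors switch on replication genes at the start of S phase, so their sites were looked for in the promoters. The letters TTTGGCGC or TTTCCCGC were searched on both strands of the 250 bases before each RefSeq start site (GRCm38.p6), and a gene with several matches was counted once. A site was present in 6 of 21 replication genes (28.6%), against 407 of 27025 genes (1.51%), in 2 of 19 let-7 targets (10.5%) and in none of 20 mitosis genes. The windows of Pola1, at chrX:93632266-93632313 on the minus strand, and Mcm6, at chr1:128359725-128359772 on the minus strand, are shown as the members with a site that had the largest differences. Capitals mark the match, which in Pola1 is the reverse complement of TTTGGCGC:
Pola1: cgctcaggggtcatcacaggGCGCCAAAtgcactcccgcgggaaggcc
Mcm6: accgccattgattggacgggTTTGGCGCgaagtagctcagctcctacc
Mcm6, a subunit of the replicative helicase picked after its values were seen, read 10.74 in EB-C5 against 10.30, 9.55 and 10.15. A match describes the sequence and does not show that a factor binds there.

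Smooth muscle and TGF-beta response genes lay lower in EB-C5. Fibroblasts in culture express such contractile and matrix-signalling genes when TGF-beta signalling and serum response factor are active, and they are lost as cells reprogram. EB-C5 was below the range of OKMS, STEMCCA and WTSI in 15 of 19 members (78.9%, against 22.0% of all genes) and above it in none. No member was called, and the median difference was -0.70, between -0.76 and -0.51 under the alternatives. Of the 15, 6 also lay lower by at least 1, beside 0.391% of all genes. The list mean was 9.54 in EB-C5 against 10.05, 10.36 and 10.37. OKN-HAMS at 9.72 was the nearest of the 4 further cassettes, and lacZ was highest at 11.18.

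Cnn1, the actin-binding protein calponin of smooth muscle, read 8.84 in EB-C5 against 10.75 in OKMS, 10.79 in STEMCCA and 10.76 in WTSI. The SD of those 3 arrays was 0.02, and EB-C5 stood at -1.91 from the lowest of them; the difference of -1.92 ± 0.75 was not called (adjusted p = 0.541). The spread behind that SE came from the 4 further cassettes, in which Cnn1 ran from 8.84 in OKN-HAMS to 11.07 in OK+9MS. Tagln, the actin-bundling protein transgelin, read 9.42 against 10.82, 11.21 and 10.74 (-1.50 ± 0.51, adjusted p = 0.496). Myl9, a myosin regulatory light chain, read 10.02 against 11.34, 11.38 and 11.13, and 10.01 in OKN-HAMS. Cnn1, Tagln and Myl9 had EB-C5 and OKN-HAMS as their lowest arrays. Ccn2, a secreted matricellular protein induced by TGF-beta, read 10.47 against 11.77, 11.19 and 12.27. Tgfb1, the ligand itself, read 8.40 against 9.38, 9.49 and 9.47 (-1.05 ± 0.30, adjusted p = 0.44), and Itga5, a fibronectin receptor chain, 9.85 against 10.54, 11.02 and 11.03. Ccn2, Tgfb1 and Itga5 were lower than in all 7 other cassettes. Acta2, smooth muscle actin, read 12.69 against 13.13, 13.26 and 13.13, and Tgfb2 and Tgfbi lay inside the range. The Tgfb1, Itga5, Acta2, Tgfb2 and Tgfbi values were picked after they were seen.

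The CArG box, the site of serum response factor, was searched in the same promoter windows on both strands. It was found in 1 of 12 smooth muscle and TGF-beta genes that had a promoter sequence (8.33%), against 439 of 27025 genes (1.62%). A single gene also had it among 10 FGF and ERK genes (10.0%), 19 let-7 targets (5.26%) and 21 replication genes (4.76%). The smooth muscle gene was Myl9, and the window at chr2:156775283-156775332 on the plus strand is shown with the match in capitals:
Myl9: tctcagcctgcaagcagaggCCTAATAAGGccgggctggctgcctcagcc

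Genes of FGF and ERK signalling and feedback, ligands and receptors included, were also lower as a list. ERK induces its own inhibitors, the Dusp phosphatases and Sprouty proteins, and the Etv transcription factors, so these genes rise and fall with the pathway. EB-C5 was below the range in 11 of 17 members (64.7%, against 22.0% of all genes) and above it in none (27.3%); no member was called, and the median difference was -0.46, between -0.63 and -0.40 under the alternatives. The list mean was 8.73 in EB-C5, 9.44 in OKMS and in STEMCCA and 9.17 in WTSI. The 4 further cassettes lay between 9.02 and 9.47, which left EB-C5 the lowest of the 11 arrays.

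Dusp6, a phosphatase that inactivates ERK, read 8.38 in EB-C5 against 9.94 in OKMS, 9.68 in STEMCCA and 9.42 in WTSI (-1.30 ± 0.33, adjusted p = 0.405). EB-C5 stood at -1.03 from the lowest of the 3 and was below all 7 other cassettes. Etv5 read 8.17 against 10.49, 9.74 and 8.70 (-1.47 ± 0.71), and Etv4 7.24 against 9.25, 8.15 and 7.68 (-1.11 ± 0.64). In both Etv genes the order was the same, with OKMS highest and WTSI nearest to EB-C5. Dusp4 read 6.97 against 8.89, 7.57 and 7.73. Among members picked after their values were seen, the ligand Fgf2 read 8.41 against 9.37, 9.40 and 9.57, with OKN-HAMS lower still at 7.85. Spry4 read 8.80 against 10.56, 9.79 and 9.13. Of the receptors, Fgfr1 read 11.49 against 11.54, 11.76 and 11.55, and Fgfr2 lay inside the range. Fgf4, an FGF ligand of pluripotent cells from the early pluripotency list, read 6.85 against 8.99, 7.61 and 7.22, next to lacZ at 6.82.

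Immediate early genes and the BMP and Id genes leaned the same way with fewer members outside the range. All 14 AP-1 and immediate early genes had a negative difference, with a median of -0.36 that ran from -0.71 to -0.13 under the alternatives, and 5 were below the range (35.7%, against 22.0% of all genes). Without OKMS 12 of them were below, beside 29.7% of all genes. Their mean was 8.62 in EB-C5 and 8.61 in OKMS, against 9.01 in STEMCCA and 9.63 in WTSI. EB-C5 was thus level with OKMS, and its mean was lower only than those of STEMCCA and WTSI. Fosl1, an AP-1 subunit induced by ERK, read 8.27 in EB-C5 against 9.58, 8.97 and 9.84. Fos, picked after its values were seen, read 8.79 against 7.60, 9.20 and 10.28, so the 3 other arrays spanned a wide range and EB-C5 lay within it. Of 16 BMP and Id genes, 7 were below the range (43.8%, against 22.0% of all genes) and 2 above (12.5%, against 27.3%). Their median difference was -0.36. Without STEMCCA 9 were below and 4 above, beside 29.8% and 35.3% of all genes. Id1 and Id3, inhibitors of differentiation that BMP induces, read 8.45 and 8.21 in EB-C5. The other 3 arrays had 9.40, 8.84 and 10.64 for Id1 and 8.51, 8.80 and 10.33 for Id3, with WTSI the highest in both.

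Epithelial genes had lower means in EB-C5, STEMCCA and WTSI than in OKMS. Fibroblasts become epithelial early in reprogramming, when E-cadherin and simple keratins are switched on. The mean of 38 epithelial genes was 7.34 in EB-C5, 8.23 in OKMS, 7.55 in STEMCCA and 7.28 in WTSI, while the 4 further cassettes lay between 8.80 and 9.49 and lacZ at 7.05. EB-C5 was below the range in 12 genes (31.6%, against 22.0% of all genes) and above it in 1 (2.63%, against 27.3%). The median difference was -0.26 and ran from -1.18 to -0.06 under the alternatives. Without WTSI EB-C5 was below in 25 genes (29.1% of all genes), without OKMS above in 9 (36.0%), and after centring above in 3 and below in 9 (39.7% and 14.1%). Cdh1, the gene of E-cadherin, read 7.43 in EB-C5 against 10.10 in OKMS, 9.63 in STEMCCA and 7.65 in WTSI (-1.70 ± 0.84, adjusted p = 0.676). Esrp1, an epithelial splicing factor, read 6.10 against 9.37, 7.51 and 6.28. EB-C5 and WTSI were thus alike in both, and the large differences came from OKMS and STEMCCA. Krt19, a simple keratin, read 7.88 against 9.86, 9.34 and 8.71, and Ehf, an epithelial Ets factor, 6.95 against 9.17, 7.10 and 7.83. Other genes, picked after their values were seen, had another order. Epcam read 7.99 against 9.26, 8.17 and 6.82, with STEMCCA nearest to EB-C5. Krt8 read 9.35 against 11.61, 9.18 and 9.24, so OKMS alone stood apart. Cldn3 was above the range, at 8.58 against 7.93, 7.96 and 8.24.

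Keratinocyte genes were low in EB-C5 without standing apart as a list. Of 40 members, 8 were above the range (20%) and 10 below (25.0%), beside 27.3% and 22.0% of all genes; without STEMCCA 17 were below (29.8% of all genes). The median difference was -0.06; against all 7 other cassettes it was -0.77. Krt6b, a stress keratin, read 5.96 in EB-C5 against 11.37 in OKMS, 7.84 in STEMCCA and 6.07 in WTSI (-2.47 ± 2.66, adjusted p = 0.947). Krtdap, a protein of differentiating keratinocytes, read 5.59 against 10.19, 6.18 and 6.14. In both genes the OKMS array alone made most of the difference. Dsc2, a desmosomal cadherin, was higher, at 8.36 against 7.94, 6.69 and 7.04, but lay at 9.78 to 9.94 in the 4 further cassettes, and against all 7 the difference was -0.37.

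Fibroblast and mesenchymal genes were high in EB-C5 as in the other arrays. Of 34 mesenchymal genes, 8 were below the range (23.5%) and 1 above (2.94%), beside 22.0% and 27.3% of all genes, with a median difference of -0.15 that ran from -0.31 to 0.04 under the alternatives. The counts depended on single arrays. Without STEMCCA 14 were above and 8 below, beside 35.3% and 29.8% of all genes. Without OKMS 1 was above and 16 below (36.0% and 29.7% of all genes), and without WTSI 1 above and 12 below (35.6% and 29.1%). The fibroblast markers had a mean of 11.37 in EB-C5 and 11.11 to 11.99 in the 3 other arrays, so the labelled cell type was borne out on all 4. Thy1, a fibroblast surface protein lost early in reprogramming, read 9.64 against 11.36, 11.66 and 10.47 (-1.52 ± 0.45, adjusted p = 0.444), below all 7 other cassettes. Of the 8 fibroblast markers, 3 were below the range, Thy1 included, and 1 was above it. The marker above was Dcn, at 11.53 against 10.07, 11.34 and 10.87. Pdgfra read 9.68 against 7.88, 9.72 and 8.72, inside the range with a difference of 0.90. Vim, the gene of vimentin, read 13.61 against 13.55, 13.64 and 13.65. The Dcn, Pdgfra and Vim values were picked after they were seen. In bulk RNA, fewer cells of a type and less RNA per cell cannot be told apart.

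**Figure D4:**
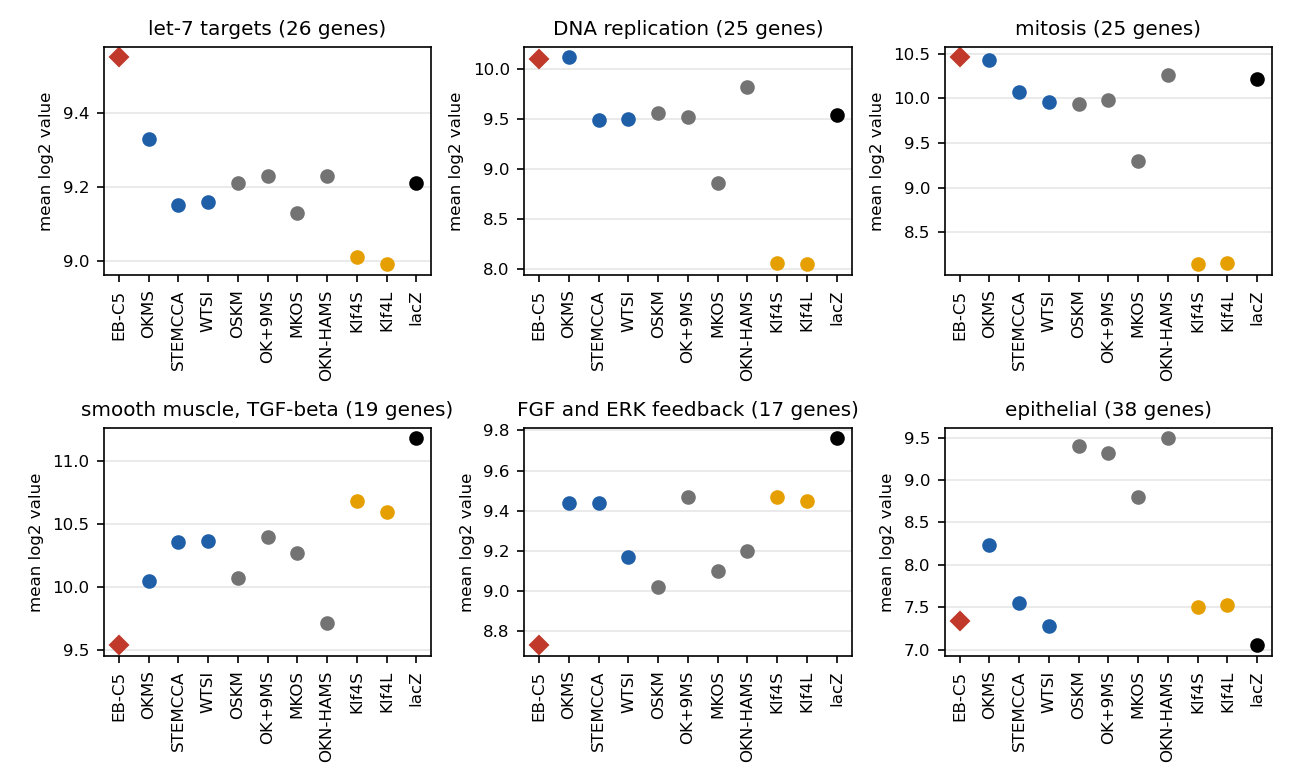
Mean log2 value over the measured members of 6 gene lists (vertical axis, a separate scale in each panel that does not start at 0) on each of the 11 arrays: EB-C5 (red diamond), the 3 other short-form cassettes (blue), the 4 further cassettes (grey), Klf4 alone (orange) and lacZ (black). EB-C5 is the highest array for let-7 targets at 9.55 and the lowest for smooth muscle and TGF-beta genes at 9.54 and FGF and ERK genes at 8.73.

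Pluripotency genes lay on both sides of the other arrays. Among 16 early pluripotency genes EB-C5 was above the range in 3 and below it in 3, beside 27.3% and 22.0% of all genes, with a median difference of 0.04. That balance rested on single arrays. Without OKMS 8 were above and 4 below, beside 36.0% and 29.7% of all genes. Without WTSI 3 were above and 7 below, beside 35.6% and 29.1%. Among 21 late pluripotency genes EB-C5 was above in 5 (23.8%), Lin28a included, and below in 6 (28.6%), with a median of 0.00. Without OKMS 9 of these were above and 7 below, beside 36.0% and 29.7% of all genes. Nanog, a core pluripotency factor, read 9.76 in EB-C5 against 11.05 in OKMS, 10.60 in STEMCCA and 7.33 in WTSI, and 6.65 in lacZ; without WTSI its difference was -1.07 in place of 0.10. Utf1, a chromatin protein of embryonic stem cells, read 6.64 against 10.89, 7.25 and 6.84, next to lacZ at 6.75. OKMS made most of that difference, although EB-C5 also stood at -0.20 from the lowest of the 7 other cassettes. Nr0b1, picked after its values were seen, read 8.83 in EB-C5 against 11.81, 7.61 and 7.07, and 5.74 in lacZ. Zfp42 and Dppa3, late markers also picked afterwards, stayed under 6 on all 4 arrays.

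The last of the 12 genes in the negative direction were of mixed function. Pcsk1n, an inhibitor of a prohormone convertase, read 8.66 in EB-C5 against 11.75, 10.49 and 8.86. Zdbf2, an imprinted gene, read 6.43 against 9.25, 7.93 and 6.48. In both, WTSI lay next to EB-C5 and OKMS was highest. Hoxd13, a limb and tail patterning gene, read 7.11 against 8.94, 9.99 and 7.19, and 7.17 in OKN-HAMS.

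A few genes of other cell types were higher in EB-C5. Tubb3, neuronal tubulin, read 9.58 against 8.69, 7.61 and 8.74 (1.23 ± 0.64, adjusted p = 0.697), but reached 11.00 in OKN-HAMS. Stmn2, a neuronal microtubule regulator, read 13.05 against 12.71, 10.68 and 12.55, and STEMCCA was the low array. Over 24 neuronal genes 7 were above the range (29.2%), close to the 27.3% of all genes, and 1 below (4.17%, against 22.0%). Without OKMS 11 were above, beside 36.0% of all genes, and without STEMCCA also 11, beside 35.3%. Lama1, a laminin chain, read 10.03 against 9.44, 8.55 and 8.89, and Lpl, lipoprotein lipase, 9.63 against 8.85, 8.12 and 8.86; both were above all 7 other cassettes. The adipocyte markers Adipoq and Fabp4 had a mean of 5.80 in EB-C5 against 5.77 to 6.12, the endothelial markers 6.32 against 6.22 to 6.28, and the skeletal muscle markers 6.93 against 6.87 to 6.97. The keratinocyte markers had 6.89 against 6.86 to 7.20, those of simple epithelium 8.0 against 7.85 to 9.64, and the neuronal markers 8.80 against 7.91 to 8.65, the last led by Stmn2. The part of these other cell types in the differences above was not tested.

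**Figure D5:**
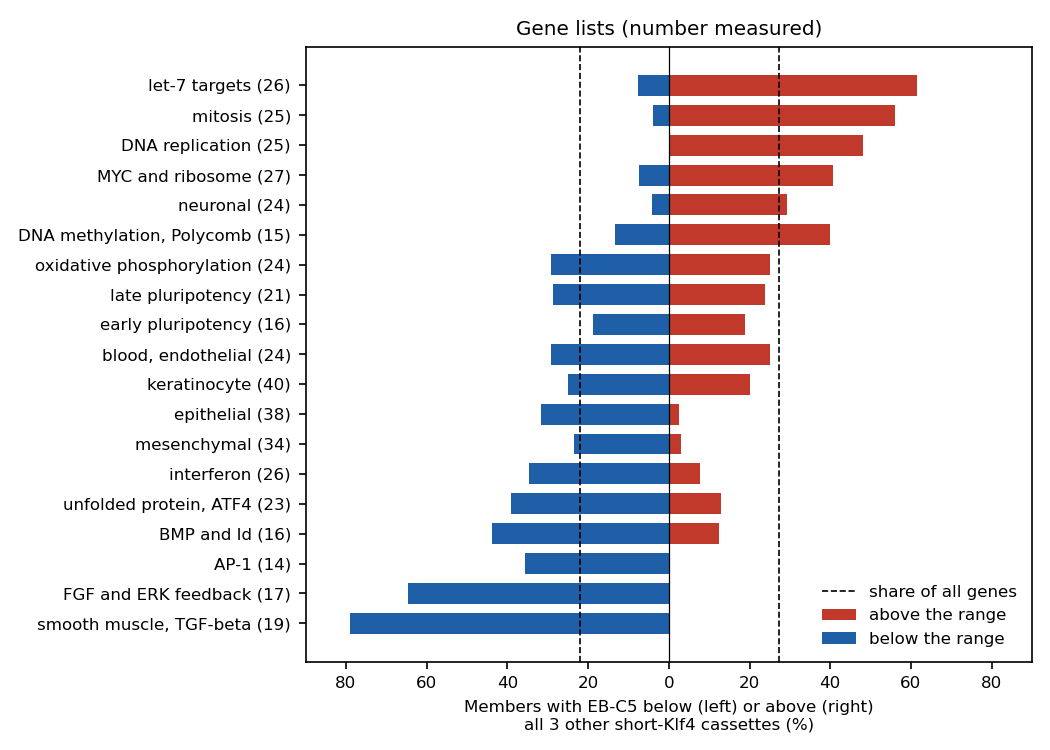
Share of the measured members of 19 gene lists (number in brackets) for which EB-C5 lay above all 3 other short-form cassettes (right, red) or below all 3 (left, blue), in percent. Dashed lines mark the shares over all genes, 27.3% above and 22.0% below; the let-7 targets reach 61.5% on the right and the smooth muscle and TGF-beta genes 78.9% on the left.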

How the data were processed

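The deposited values are on a log2 scale and come from an Affymetrix mouse gene array. The authors computed them with RMA, per the submitters' processing notes, which corrects background, equalises the arrays and summarises each probe set; its version is not given here. RMA can understate large differences. Array medians lay between 7.188 and 7.269. Of 28856 probe sets, 21789 had 1 gene symbol, 1621 several and 5446 none; genes with several probe sets (999) kept the one with the highest mean, which gave 19938 genes.

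EB-C5 was compared with the mean of OKMS, STEMCCA and WTSI in limma 3.58.1 (R 4.3.3), with the 8 cassettes in 3 groups and 5 residual degrees of freedom. The 3 groups were EB-C5, its 3 comparison arrays and the 4 further cassettes, which only add to the spread. Calls needed an adjusted p under 0.05 after Benjamini-Hochberg adjustment. The spread is that between different constructs, EB-C5 is assumed to vary like the others, and the number of arrays limits the precision. Simulated data for 19938 genes had normal noise, with 100 genes changed by 1 and 100 by 2 in EB-C5 only. On them the fit recovered 57% of changes of 1 and 88% of changes of 2, with 10 false calls. An adjusted p depends on how many genes change, so these shares do not carry over to the real data. In the real data Tfap2d, at 2.41, and Fbxo15, at 2.28, were not called.

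The members and 34 gene lists (680 of 724 entries measured) were chosen with earlier results of these data known, and lists were described by counts without a test. Genes named were the 12 largest differences in each direction (called, or at least 1 and outside the range, with a level of at least 6.5), up to 4 such members per list and 7 factors; predicted genes and small RNAs were counted and not named. Every other gene named was picked after its values were seen. Alternatives covered the arrays in the fit, scaling, dim genes, probe sets, the reference and each array left out.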

Additional observations from a re-analysis of the deposited data

Results flagged for a closer look

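Within the 4 short-form cassettes, 6 named genes had 1 array far from the other 3, measured as its gap to the nearest array divided by the range of the 4, beyond Dixon's critical value for 4 samples. That is 12.8% of the 47 named genes, which were chosen in part for the distance of EB-C5 from the other 3 arrays, so that EB-C5 stands apart in some of them follows from the choice. EB-C5 was that array in 4 of the 6, the highest for Lin28a (0.956), Cd3g (0.943) and Fbxo15 (0.867) and the lowest for Cnn1 (0.978). OKMS was the highest for Krtdap (0.87) and Utf1 (0.856), at 10.19 and 10.89, and made most of the differences of EB-C5 in these genes. Within the 4 further cassettes the same gap was passed by Cd3g in MKOS (highest, 0.89, at 5.62), Sv2b in OK+9MS (lowest, 0.985, at 6.38) and Cdh1 in MKOS (lowest, 0.831, at 11.03). Chance flags about 1 in 20 such groups. Over all 19938 genes the gap was passed by 9.08% in the short-form cassettes, with EB-C5 apart in 523 of 1811, and by 8.8% in the further cassettes; these shares are descriptions, and many of the genes lie at the array's low end.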

How the results depend on the processing

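The number of genes called higher was 0 with only the 4 arrays compared, 5 with all 11 arrays, 5 with an intensity trend in the prior and 2 against all 7 other cassettes, in place of 1; leaving out an array gave 0 to 3, and 0 to 2 called lower. Of the 3 called higher and 2 called lower without WTSI, none was Lin28a. Genes higher by at least 1 numbered 37 of 59 once dim genes were left out, and genes lower by at least 1 numbered 178 against all 7 cassettes; leaving out an array gave 43 to 113 higher (91 without OKMS, 113 without WTSI) and 72 to 170 lower. A gap of at least 0.5 beyond the range, added after seeing the data, left 40 and 56. Differences that turned sign were Dsc2 (-0.37 against all 7), Pou5f1 (-0.11 without STEMCCA), Sox2 (-0.11 without OKMS, -0.29 without STEMCCA), Klf4 (0.03 after centring, 0.12 without WTSI) and Nanog (-1.07 without WTSI); the cause was not tested. Of the other values of named genes, 673 kept direction and side of the threshold, 8 crossed into a call and 8, all of Lin28a, lost it. No paired analysis was possible because each construct has a single array and the labels give no replicate numbers. Values under 6 are near the array's low end, where differences are understated.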

Other observations

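Several gene groups outside the comparison's main lists were read as well. Of 26 interferon-stimulated genes, 9 were below the range of the 3 arrays in EB-C5 (34.6%, against 22.0% of all genes) and 2 above, with a median difference of -0.30 that ran from -0.46 to 0.05 under the alternatives. Without STEMCCA 9 were above and 9 below, beside 35.3% and 29.8% of all genes, and without WTSI 14 were below, beside 29.1%. STEMCCA had the highest mean of that list among the 4 arrays, 9.64 against 8.68 in EB-C5, 8.76 in OKMS and 8.65 in WTSI. Ccl5, a chemokine that interferon induces, read 11.08 in EB-C5 against 11.73, 12.57 and 11.92, and 12.87 in lacZ.

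Of 15 genes of DNA methylation and the Polycomb complex, 6 were above the range (40%, against 27.3% of all genes) and 2 below, with a median difference of 0.15. Without OKMS 11 were above (36.0% of all genes), and after centring each array on its median 8 were (39.7%). Mtf2, a Polycomb accessory protein, read 10.03 in EB-C5 against 9.35, 9.10 and 9.14 (0.84 ± 0.25, adjusted p = 0.445), above all 7 other cassettes, and Ezh2, the Polycomb methyltransferase, 11.65 against 11.54, 11.01 and 10.96; both were picked after their values were seen.

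Of 21 Hox genes, 4 were below the range (19.0%, against 22.0% of all genes) and 1 above, with a median of -0.06; without OKMS 14 were below (29.7% of all genes). Beside Hoxd13, and picked after their values were seen, Hoxa13 read 6.77 in EB-C5 against 7.43, 8.30 and 6.89, and 6.82 in OKN-HAMS, and Hoxd10 7.44 against 7.57, 8.56 and 7.80. Other posterior members lay inside the range, among them Hoxa10 (-0.07), Hoxa11 (-0.28) and Hoxc10 (-0.22). The 23 genes of the unfolded protein response and ATF4 had 9 below the range (39.1%, against 22.0% of all genes). Another 3 were above (13.0%, against 27.3%), and the median was -0.10. Without STEMCCA 14 were below, beside 29.8% of all genes. The 24 oxidative phosphorylation genes had 7 below (29.2%) and 6 above (25.0%), beside 22.0% and 27.3% of all genes, with a median of 0.03. Without STEMCCA 12 were below (29.8% of all genes), and without WTSI 12 were above (35.6%).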
